A study of Mus musculus with 12 samples.

Results

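The transcripts of the proteins that coat lipid droplets and of the enzymes that empty them were followed in mouse interscapular brown adipose tissue (BAT). The set holds 10 genes chosen by symbol: the perilipins Plin1, Plin2, Plin4 and Plin5, the CIDE proteins Cidea and Cidec, the lipases Pnpla2, Lipe and Mgll, and the lipase inhibitor G0s2. All 10 were found among the 25124 genes of the deposited table, and all 10 passed the filter on low values in every comparison. The tissue came from male mice 10 weeks old, of the Txnip-/- genotype (called TxnipKO in the labels) or wild type (WT). Txnip-/- mice lacked the gene in the whole body, so a change in BAT need not have arisen in brown adipocytes. Mice of both genotypes had been kept for 1 week at room temperature (RT, 23 °C) or at thermoneutrality (TN, 30 °C), at which a mouse needs no extra heat production. Each of the 4 groups held 3 libraries, 12 in all. The labels do not say that the libraries of a group came from separate animals, so the p-values measure the spread between these libraries. RNA was measured by poly(A) RNA-seq, and values are given as TPM, a relative abundance adjusted for transcript length on which genes can be set side by side.

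Brown adipocytes store triglyceride in many small droplets. Perilipins sit on the droplet surface and govern which lipases reach it, and CIDE proteins pass lipid from smaller to larger droplets where droplets touch. Lipolysis runs in steps: Pnpla2 (adipose triglyceride lipase) makes diglyceride from triglyceride, Lipe (hormone-sensitive lipase) makes monoglyceride, and Mgll (monoglyceride lipase) frees the last fatty acid. Abhd5 activates Pnpla2, and G0s2 inhibits it. In BAT the pathway is driven by noradrenaline through cAMP, and it feeds fatty acids to the mitochondria for heat.

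Txnip itself was measured at 564, 581 and 694 TPM in the RT WT libraries and at 24.8, 26.9 and 35.4 TPM in the RT Txnip-/- libraries. At TN it was 1238, 1083 and 1072 TPM in WT and between 10.5 and 14.4 TPM in Txnip-/-, so every library went with its labelled genotype. The libraries held 29.9 M to 47.4 M reads. Of 6 adipocyte and 6 brown adipocyte markers, Elovl3 in TN Txnip-/- was the only one to be below 1 TPM in all 3 libraries of a group. The summed level of 8 macrophage markers at RT ran from 67.4 to 78.3 TPM in WT and from 114 to 187 in Txnip-/-, and at TN from 150 to 266 in WT and from 432 to 608 in Txnip-/-. The labels give no batch, and temperature cannot be told apart from any processing run that went with it.

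The most abundant members on the TPM scale were Cidea, ranked 19 of all 25124 genes by its mean over the 12 libraries, and Pnpla2, ranked 23. Lipe (rank 113), Plin1 (115), Cidec (156), G0s2 (171), Plin2 (218) and Mgll (313) followed, and Plin4 (519) and Plin5 (692) were the least abundant. In RT WT the order of mean TPM was Cidea, Pnpla2, Plin1, G0s2, Cidec, Lipe, Plin2, Mgll, Plin5 and Plin4, and the ranges of the libraries overlapped between Plin1 and G0s2, between G0s2 and Cidec and between Cidec and Lipe. In TN Txnip-/- the order was Pnpla2, Cidea, Lipe, Plin1, Cidec, Plin2, Mgll, Plin4, G0s2 and Plin5, and neighbours from Plin2 down overlapped. G0s2 thus stood in the third place by mean in RT Txnip-/- (865 ± 71.9 TPM, SD, n = 3) and in the ninth in TN Txnip-/- (150 ± 135 TPM, SD, n = 3).

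**Figure D1:**
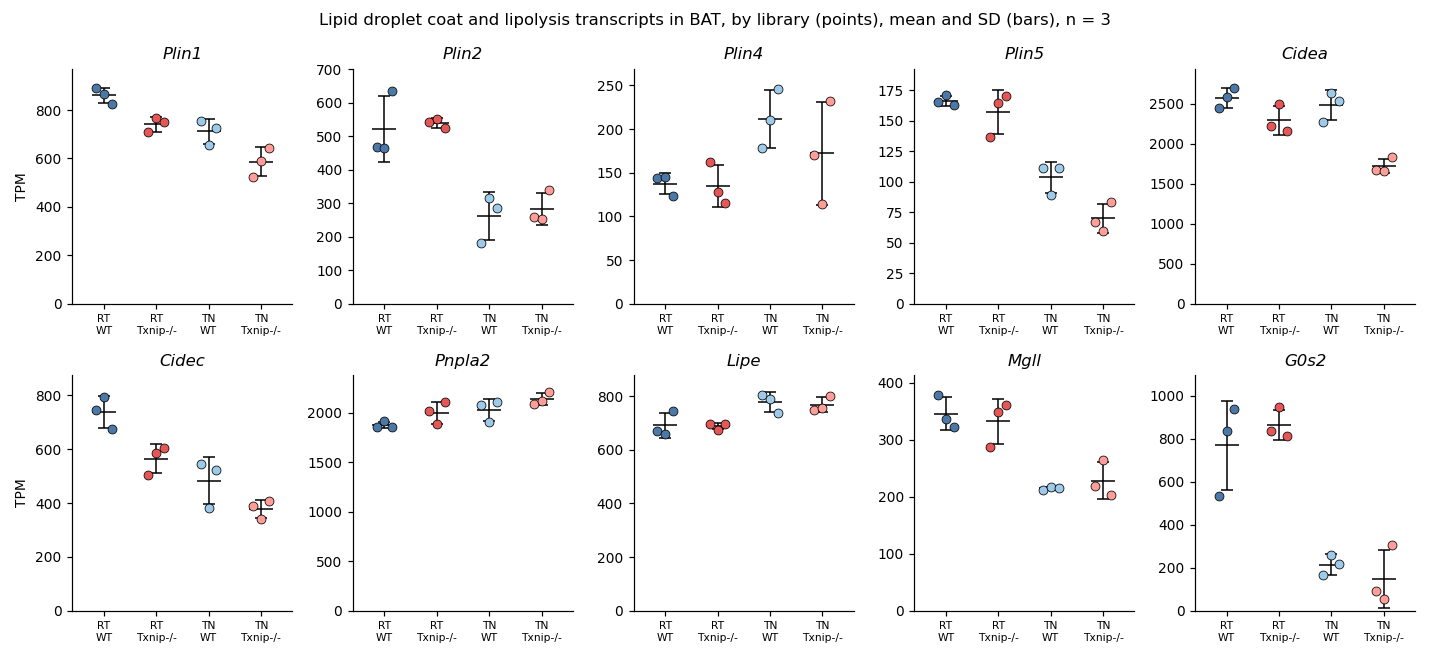
TPM (vertical axes, linear, from 0) of each of the 10 genes in the 12 libraries. Points are libraries in replicate order, and bars give the mean and SD of 3 libraries per group. Pnpla2 and Lipe lay within a narrow band in all groups, whereas G0s2 ran from 536 to 946 TPM at RT and from 55.2 to 304 TPM at TN.

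The next question was whether loss of Txnip altered these transcripts at RT. A gene was called when its fold change was below 0.8 or above the reciprocal of 0.8 with a Benjamini-Hochberg adjusted p under 0.05, in limma fitted to log2(TPM + 1) over all genes tested. By this rule 0 of the 10 genes were called, against 1.49% of the 11980 genes tested (0.760% called higher and 0.726% called lower). That background of 178 calls fell to 31 and 2 without WT replicate 1 and 2, and to 33, 87 and 25 without Txnip-/- replicate 1, 2 and 3, and was 159 without WT replicate 3. Before adjustment, 3 of the 10 had a limma p-value under 0.05, which were Cidec (0.0030), Plin1 (0.0051) and Cidea (0.0485), as did 1921 of all 11980 genes tested. The groups did not overlap for 2 of the 10 genes, Plin1 and Cidec, against 22.6% of all genes tested. The median log2 fold change was -0.05 over the 10 genes and 0.03 over all genes tested.

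Cidec (mm10 chr6:113424634-113435760, minus strand), which joins droplets in adipocytes, was measured at 745, 793 and 674 TPM in RT WT and at 506, 586 and 604 TPM in RT Txnip-/-. Every Txnip-/- library was below every WT library, with a log2 fold change of -0.38 ± 0.09 (SE) and a limma adjusted p of 0.0913. Plin1 (chr7:79721164-79732776, minus strand), the main coat protein of adipocyte droplets and the one that holds Abhd5 away from Pnpla2 until it is phosphorylated, was at 889, 866 and 827 TPM in RT WT and at 707, 767 and 750 TPM in RT Txnip-/-. These groups too were apart, by -0.22 ± 0.05 (SE) on the log2 scale with an adjusted p of 0.119 by limma. The other 8 genes overlapped between genotypes, with log2 fold changes from -0.17 for Cidea to 0.20 for G0s2.

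Of the RT comparison it was also measured that the summed skeletal muscle markers were at 18.5 to 44.2 TPM in Txnip-/- and at 2.52 to 2.95 TPM in WT, with 5 of 5 tested markers called higher. In RT WT 5 of the 6 muscle markers were below 1 TPM in all 3 libraries. The macrophage sum was higher as given above, with 3 of 7 tested markers called higher (C1qb, Lyz2 and Mrc1). The 5 brown adipocyte markers other than Cidea summed to between 7307 and 8020 TPM in RT WT and between 5200 and 7046 TPM in RT Txnip-/-, without overlap, and 1 of the 5 was called lower (Elovl3, limma adjusted p = 0.0487). The endothelial sum was at least 238 TPM in each WT library and between 191 and 233 TPM in Txnip-/-, with 0 of 5 markers called. Of the adipocyte, fibroblast and lymphocyte markers 0 were called. The part of these values in the differences of Plin1 and Cidec was not tested.

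At TN, 2 of the 10 genes were called in Txnip-/- against WT, Cidea and Plin5, both lower. Over all 12891 genes tested, 8.66% were called, 6.49% higher and 2.17% lower. These 1116 calls became 703 and 684 without WT replicate 1 and 3 and 456 and 464 without Txnip-/- replicate 1 and 2, and were 842 and 1005 without either of the other libraries. The groups did not overlap for 3 of the 10 genes (Cidea, Plin5 and Plin1) against 31.1% of all genes tested. The median log2 fold change of the 10 genes was -0.31, and that of all genes was 0.01.

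Cidea (chr18:67343564-67367794, plus strand), the CIDE protein most typical of brown fat, was at 2273, 2642 and 2539 TPM in TN WT and at 1677, 1667 and 1831 TPM in TN Txnip-/-. The 3 Txnip-/- libraries lay close together and below all WT libraries, and the log2 fold change was -0.52 ± 0.09 (SE), 0.695-fold, with a limma adjusted p of 0.0132. Plin5 (chr17:56111601-56117548, minus strand), which ties droplets to mitochondria in oxidative tissues, was at 111, 89.1 and 111 TPM in TN WT and at 67.3, 59.9 and 83.2 TPM in TN Txnip-/-. The highest Txnip-/- library was just below the lowest WT library, and the log2 fold change was -0.56 ± 0.13 (SE), 0.677-fold, with a limma adjusted p of 0.0390. In bulk tissue, fewer brown adipocytes and less of a transcript in each brown adipocyte cannot be told apart.

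Whether the 2 genes were called depended on single libraries. On leaving out each library, the log2 fold change ranged from -0.59 to -0.48 for Cidea and from -0.69 to -0.46 for Plin5. Without TN Txnip-/- replicate 1 the limma adjusted p was 0.0627 for Cidea and 0.121 for Plin5, and without its replicate 2 it was 0.0577 and 0.112. Plin5 also lost its call without TN WT replicate 1 (adjusted p = 0.103) or replicate 3 (adjusted p = 0.118) in limma. When every gene with a value above 0 was fitted, both genes kept their fold changes and missed the threshold, with limma adjusted p-values of 0.0986 for Cidea and 0.0879 for Plin5.

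Plin1 was at 754, 655 and 727 TPM in TN WT and at 525, 588 and 645 TPM in TN Txnip-/-. Its groups were apart by a small gap, and its log2 fold change of -0.28 ± 0.10 (SE) had an adjusted p of 0.112 in limma. Cidec was at 543, 383 and 522 TPM in TN WT and at 389, 340 and 406 TPM in TN Txnip-/-, and TN WT replicate 2 fell among the Txnip-/- values. With all libraries its log2 fold change was -0.34 ± 0.14 (SE) with a limma adjusted p of 0.172, and without TN WT replicate 2 it was -0.50 with an adjusted p of 0.0356. The lipases did not move by genotype at TN beyond their spread, and the 95% interval of the log2 fold change was -0.11 to 0.26 for Pnpla2, -0.19 to 0.15 for Lipe and -0.15 to 0.30 for Mgll.

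G0s2 (chr1:193272160-193273188, minus strand) was the most scattered gene at TN. Its TPM was 165, 261 and 217 in WT and 89.5, 55.2 and 304 in Txnip-/-. Replicates 1 and 2 of Txnip-/- were below all WT libraries, and replicate 3 was above them. The log2 fold change was -0.87 ± 0.54 (SE) with a limma adjusted p of 0.362, and without Txnip-/- replicate 3 it was -1.57 with an adjusted p of 0.0160. Plin2, Plin4 and Mgll overlapped between the genotypes at TN.

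Markers of other cells moved in the same comparison. At TN all 8 macrophage markers and all 5 fibroblast markers were called higher in Txnip-/-, and the fibroblast sum rose from between 236 and 310 TPM to between 494 and 499 TPM. Lymphocyte markers summed to between 5.17 and 9.01 TPM in WT and between 9.74 and 14.1 TPM in Txnip-/-, with 1 of 4 tested called higher (Cd4), and 1 of 5 endothelial markers was called higher (Vwf), with overlapping endothelial sums. The sum of 6 adipocyte markers overlapped, from 14198 to 15831 TPM in WT and from 14394 to 16013 TPM in Txnip-/-. Most of that sum was Fabp4, at 12336 to 14045 TPM in WT and 12560 to 14315 TPM in Txnip-/-. By gene, 1 of the 6 was called higher (Retn) and 0 lower. The skeletal muscle sum was 3.47, 14.7 and 2.34 TPM in TN WT and 3.67, 15.2 and 3.17 TPM in TN Txnip-/-, with 1 high library in each group. The 5 brown adipocyte markers other than Cidea summed to between 3015 and 4177 TPM in WT and between 1229 and 1629 TPM in Txnip-/-, with 3 of the 5 called lower. The part of these values in the lower Cidea and Plin5, and in the scatter of Cidec, G0s2 and Plin4 at TN, was not tested.

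**Figure D2:**
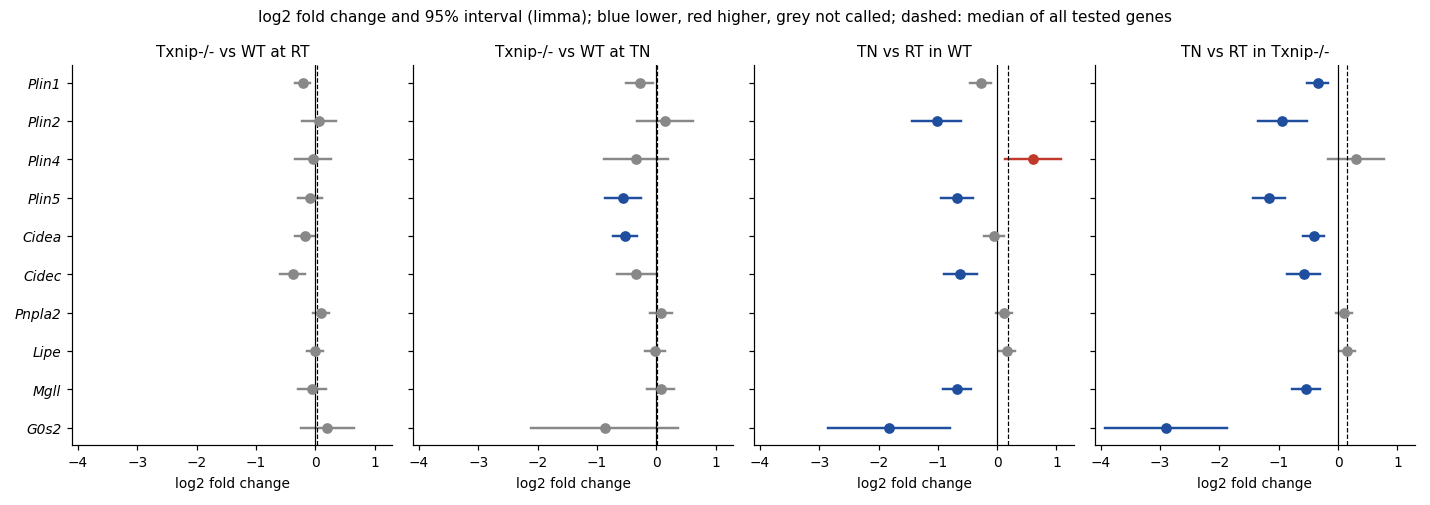
Log2 fold change with its 95% interval (horizontal axes, limma on log2(TPM + 1)) of the 10 genes in the genotype comparison at each temperature and the temperature comparison in each genotype. Blue is called lower, red called higher and grey not called. The solid line is 0, and the dashed line is the median of all genes tested. No gene was called at RT, Plin5 and Cidea were called lower at TN, and the temperature comparisons held 5 lower and 1 higher calls in WT and 7 lower calls in Txnip-/-.

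More of these genes were called with temperature than with genotype. From RT to TN, 6 of the 10 were called in WT, 5 of them lower (G0s2, Plin2, Plin5, Mgll and Cidec) and 1 higher (Plin4). Among all 12486 genes tested in WT, 37.8% were called, 31.4% higher and 6.39% lower. In Txnip-/- mice 7 of the 10 were called, all lower (G0s2, Plin5, Plin2, Cidec, Mgll, Cidea and Plin1), where 39.2% of all genes were called, 30.9% higher and 8.27% lower. The groups did not overlap for 7 of the 10 genes in WT and 8 of the 10 in Txnip-/-, against 57.5% and 61.1% of all genes. The median log2 fold change of the 10 genes was -0.45 in WT and -0.48 in Txnip-/-, and that of all genes was 0.18 and 0.15.

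The balance of calls over all genes depended on how libraries were scaled. As deposited, 3919 genes were called higher and 798 lower in WT, against 2867 and 1205 after upper-quartile scaling and 1926 and 1841 after centring each library on its median. In Txnip-/- the corresponding counts were 3858 and 1033, 3207 and 1455, and 2294 and 2435. With median centring 14.7% of all genes in WT and 19.5% in Txnip-/- were called lower. Under both scalings the lower calls were those given above with Plin1 added in WT, and the higher call of Plin4 was lost.

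G0s2, which binds Pnpla2 and blocks it, fell the most in both genotypes. It was at 536, 835 and 938 TPM in RT WT and at 836, 946 and 812 TPM in RT Txnip-/-, against the TN values above. Every TN library was below every RT library of its genotype, and the highest TN value of all, 304 TPM, was below the lowest RT value of 536 TPM. The log2 fold change was -1.82 ± 0.47 (SE) in WT, 0.283-fold, and -2.90 ± 0.47 (SE) in Txnip-/-, 0.134-fold, with limma adjusted p-values of 0.0075 and 4.0e-04. Relative to the median of all genes the changes were -2.01 and -3.05. The size in Txnip-/- moved with single libraries, as it was -3.60 without TN Txnip-/- replicate 3 and -2.38 without TN Txnip-/- replicate 2.

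Plin2 (chr4:86656565-86670059, minus strand), the perilipin found in most cell types and kept stable by stored lipid, was at 468, 465 and 636 TPM in RT WT and at 182, 317 and 287 TPM in TN WT. In Txnip-/- it was at 543, 552 and 525 TPM at RT and at 259, 254 and 338 TPM at TN. The temperatures were apart in both genotypes, and the genotypes overlapped at both temperatures. Plin2 fell by 1.02 ± 0.19 (SE) on the log2 scale in WT and by 0.94 ± 0.19 (SE) in Txnip-/-, with limma adjusted p-values of 0.0014 and 0.0017.

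Plin5 was at 165, 171 and 163 TPM in RT WT and at 137, 164 and 170 TPM in RT Txnip-/-. All 6 TN libraries were below all 6 RT libraries. Its log2 fold change with temperature was -0.68 ± 0.12 (SE) in WT and -1.16 ± 0.12 (SE) in Txnip-/-, with limma adjusted p-values of 0.0011 and 3.3e-05. The difference between these changes was -0.48 ± 0.17 (SE), with an unadjusted p of 0.0189 and an adjusted p of 0.312 in limma.

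Plin4 (chr17:56100591-56109802, minus strand), a coat of small nascent droplets in white adipocytes, went the other way. It was at 144, 145 and 123 TPM in RT WT and at 179, 211 and 246 TPM in TN WT, so all TN libraries were higher. The log2 fold change was 0.61 ± 0.22 (SE) with a limma adjusted p of 0.0343, and relative to the median of all genes it was 0.43. This call was lost under upper-quartile scaling (adjusted p = 0.0793), median centring (0.124) and the fit of every gene above 0 (0.0587), and without any RT WT library or without TN WT replicate 2 or 3 (highest adjusted p 0.115, all by limma). In Txnip-/- Plin4 was at 162, 128 and 115 TPM at RT, against 170, 114 and 232 TPM at TN. These groups overlapped. Its log2 fold change there was 0.30 ± 0.22 (SE), with an adjusted p of 0.259 in limma, and 0.57 with an adjusted p of 0.0229 without TN Txnip-/- replicate 2. Plin4 and Plin5 are neighbours on the same strand of chromosome 17 with 1798 bases between them, and their log2 fold changes had opposite signs in both genotypes. The Plin4 exons share 17 bases with the opposite-strand gene Hdgfl2.

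Cidec fell in both genotypes, from the RT values above, by 0.62 ± 0.13 (SE) on the log2 scale in WT and by 0.58 ± 0.13 (SE) in Txnip-/-, with limma adjusted p-values of 0.0022 and 0.0029. Cidea was at 2445, 2587 and 2701 TPM in RT WT and at 2227, 2498 and 2163 TPM in RT Txnip-/-. In WT the RT and TN libraries of Cidea overlapped, with a log2 fold change of -0.05 ± 0.08 (SE) and a 95% interval of -0.23 to 0.12. In Txnip-/- every TN library was below every RT library, with a log2 fold change of -0.41 ± 0.08 (SE) and a limma adjusted p of 0.0013. The difference between the genotypes in this response was -0.36 ± 0.11 (SE), with an unadjusted p of 0.0081 and an adjusted p of 0.253 in limma, so it was not called.

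Plin1 fell by 0.34 ± 0.08 (SE) on the log2 scale in Txnip-/-, 0.789-fold, with a limma adjusted p of 0.0040. Without RT Txnip-/- replicate 2 or TN Txnip-/- replicate 1 its change was -0.32 or -0.27 and no longer passed the fold threshold. In WT its change of -0.28 ± 0.08 (SE), 0.826-fold, had an adjusted p of 0.0138 in limma and did not pass the fold threshold, which it did under upper-quartile scaling (-0.38) and median centring (-0.46).

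Of the lipases, Mgll alone was called. Mgll (chr6:88724412-88828360, plus strand) was at 378, 337 and 322 TPM in RT WT and at 212, 217 and 216 TPM in TN WT. In Txnip-/- it was at 288, 348 and 361 TPM at RT and at 219, 264 and 202 TPM at TN. The temperatures were apart in both genotypes, and the TN WT libraries lay closest together. Mgll fell by 0.68 ± 0.11 (SE) on the log2 scale in WT and by 0.54 ± 0.11 (SE) in Txnip-/-, with limma adjusted p-values of 5.2e-04 and 0.0014. Its exons share 167 bases with the opposite-strand gene Gm26588.

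Pnpla2 (chr7:141455188-141460743, plus strand) was at 1859, 1911 and 1857 TPM in RT WT and at 2082, 1905 and 2109 TPM in TN WT. In Txnip-/- it was at 2014, 1883 and 2106 TPM at RT and at 2092, 2116 and 2210 TPM at TN. The temperatures overlapped in both genotypes, and the lowest and the highest of the 12 libraries were 1857 and 2210 TPM. The log2 fold change with temperature was 0.11 (95% interval -0.02 to 0.25) in WT and 0.10 (-0.04 to 0.23) in Txnip-/-, and it turned to -0.07 and -0.09 with median centring.

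Lipe (chr7:25379527-25390112, minus strand) was at 671, 661 and 746 TPM in RT WT and at 806, 791 and 738 TPM in TN WT. In Txnip-/- its RT values were 697, 676 and 697 TPM and its TN values 748, 755 and 800 TPM. The temperatures were apart in Txnip-/- and overlapped in WT. The log2 fold change was 0.17 ± 0.06 (SE) in WT with a limma adjusted p of 0.0374 and 0.15 ± 0.06 (SE) in Txnip-/- with an adjusted p of 0.0544, and both were under the fold threshold. Median centring turned them to -0.01 and -0.04. The Lipe exons share 918 bases with the opposite-strand gene 4732471J01Rik, and the sources used here do not state that strand was used in counting, so reads of this pair cannot be told apart.

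In the test of whether temperature acted differently in the genotypes, 0 of the 10 genes were called by limma, against 0.00801% of 12486 genes, which was Txnip alone. Unadjusted p-values were under 0.05 for 2 of the 10, Cidea and Plin5, and for 12.6% of all genes. The G0s2 difference was -1.08 ± 0.66 (SE) with an adjusted p of 0.526, and its 95% interval of -2.52 to 0.37 was the widest of the 10. It was -1.78 without TN Txnip-/- replicate 3 and -0.55 without TN Txnip-/- replicate 2, and not called in either case.

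Brown adipocyte markers other than Cidea moved with temperature too, as 4 of 5 were called lower in each genotype. In both genotypes every RT sum given earlier was above every TN sum. Macrophage markers (8 of 8) and fibroblast markers (5 of 5) were called higher at TN in each genotype, endothelial markers were called higher for 3 of 5 in WT and 5 of 5 in Txnip-/-, and lymphocyte markers for 2 of 3 tested in WT and 3 of 3 in Txnip-/-. Skeletal muscle markers were called lower for 5 of 5 tested in Txnip-/- and 0 of 5 in WT. Of the 6 adipocyte markers, 3 were called higher (Lep, Pparg and Slc2a4) and 1 lower (Fabp4) in WT, and 1 higher (Lep) and 0 lower in Txnip-/-. Plin2, Mgll and Cidec may also be expressed by macrophages. The part of these shifts in the changes of the 10 genes was not tested.

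To show the regulatory sequence beside the genes that fell together at TN, the 250 bases before the start site of G0s2, Plin2 and Plin5 are printed 5′ to 3′ along the gene's own strand, from RefSeq on GRCm38.p6 (the build also called mm10). The windows are chr1:193273189-193273438 for G0s2, chr4:86670060-86670309 for Plin2 and chr17:56117549-56117798 for Plin5, all on the minus strand. Capitals mark the only matches, on either strand, among the motifs searched: the E-box CACGTG, the cAMP response element TGACGTCA, its shorter core TGACG (part of the element), the nuclear receptor motif AGGTCA, and the DR1 element, a direct repeat of that motif. In G0s2 the capitals are the core read on the other strand, in Plin2 the nuclear receptor motif read on the other strand and in Plin5 that motif as written.
G0s2: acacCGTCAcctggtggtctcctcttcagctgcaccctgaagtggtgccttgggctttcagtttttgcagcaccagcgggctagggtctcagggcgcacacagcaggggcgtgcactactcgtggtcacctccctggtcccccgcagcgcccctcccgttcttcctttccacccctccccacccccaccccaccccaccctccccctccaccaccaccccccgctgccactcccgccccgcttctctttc
Plin2: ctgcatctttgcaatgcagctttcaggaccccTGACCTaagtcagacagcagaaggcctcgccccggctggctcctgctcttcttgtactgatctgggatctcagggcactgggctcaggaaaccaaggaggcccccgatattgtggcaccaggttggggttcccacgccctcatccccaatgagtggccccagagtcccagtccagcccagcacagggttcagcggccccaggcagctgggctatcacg
Plin5: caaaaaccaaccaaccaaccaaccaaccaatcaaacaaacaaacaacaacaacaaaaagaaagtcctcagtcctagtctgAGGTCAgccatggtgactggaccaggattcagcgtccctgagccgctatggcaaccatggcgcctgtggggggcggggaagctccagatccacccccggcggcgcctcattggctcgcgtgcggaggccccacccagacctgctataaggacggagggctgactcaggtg

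The match starts 246 bases before the G0s2 start, 218 before the Plin2 start and 170 before the Plin5 start. Of all 32851 promoters of the same length, 17.8% hold TGACG and 14.0% hold AGGTCA, so such matches are common. Entries were given for 9 of the 10 genes, apart from Cidea, whose promoter was not analysed here. Among the other genes, Mgll had an E-box 44 bases before its start and Lipe had one 155 bases before a start that lies upstream of the transcript used for its TPM, and 6.02% of all promoters hold one. The longer TGACGTCA (1.55% of all promoters) and the DR1 element (0.0335%) were not found in these windows. A match is a string of letters and not a measured binding site.

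Ratios of transcripts within a library do not depend on how the library was scaled, apart from the pseudocount of 1. Of 4 ratios, each tested for genotype and for temperature in an exact permutation test over 400 relabellings, all 4 differed by temperature and none by genotype after adjustment over the 8 tests. The smallest p that this test allows is 0.005. With same-numbered libraries paired, none of the 4 changes with temperature passed after adjustment (exact permutation, adjusted p 0.0833 to 0.125).

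At RT the ratio of Pnpla2 to its inhibitor G0s2 was 1.98 to 3.47 in WT and 1.99 to 2.59 in Txnip-/-. At TN it was 7.28 to 12.5 in WT and 7.25 to 37.7 in Txnip-/-. All TN libraries were above all RT libraries, and the TN Txnip-/- range enclosed the TN WT range. The rise with temperature was 2.47 on the log2 scale, 5.53-fold, as the mean of 1.94 in WT and 3.0 in Txnip-/- (exact permutation p = 0.005, adjusted 0.0133). The difference by genotype was 0.42 with p = 0.34 by the same exact permutation test, and it was the mean of -0.11 at RT and 0.95 at TN. In TN Txnip-/- the log2 ratio was 4.53, 5.24 and 2.86 in replicates 1 to 3. On leaving out a library, the rise with temperature ranged from 2.21 to 2.81 and the genotype difference from 0.16 to 0.75. The transcript of the activator Abhd5 fell at the same time, from 66.5, 80.1 and 82.2 TPM in RT WT to 29.1, 29.2 and 30.4 TPM in TN WT. In Txnip-/- Abhd5 was at 53.6, 76.6 and 65.8 TPM at RT and at 30.6, 34.4 and 27.3 TPM at TN. The temperatures did not overlap in either genotype, and the log2 fold changes were -1.33 ± 0.12 (SE) and -1.05 ± 0.12 (SE), with limma adjusted p-values of 4.6e-05 and 6.0e-05. The Abhd5 exons share 950 bases with the opposite-strand gene A730085K08Rik.

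Within the coat, Plin2 and Plin5 fell more than Plin1. The ratio of Plin2 to Plin1 was 0.527 to 0.769 in RT WT and 0.243 to 0.485 in TN WT, and 0.701 to 0.768 in RT Txnip-/- and 0.432 to 0.525 in TN Txnip-/-. The change with temperature was -0.67 on the log2 scale (exact permutation p = 0.005, adjusted 0.0133). The genotype difference was 0.35 with an exact permutation p of 0.06 (adjusted 0.096), and p was 0.015 without RT WT replicate 3 and 0.025 without TN WT replicate 2. The ratio of Plin5 to Plin1 at RT was 0.187 to 0.198 in WT and 0.195 to 0.228 in Txnip-/-, and at TN 0.137 to 0.154 in WT and 0.103 to 0.130 in Txnip-/-, a change with temperature of -0.61 on the log2 scale (exact permutation p = 0.005, adjusted 0.0133). Its genotype difference of -0.08 (exact permutation p = 0.47) was the mean of 0.13 at RT and -0.28 at TN, where the ranges did not overlap. The difference between those values was not tested.

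At RT the ratio of Cidea to Cidec was 3.26 to 4.0 in WT and 3.57 to 4.39 in Txnip-/-. At TN it was 4.18 to 6.88 in WT and 4.31 to 4.89 in Txnip-/-. The change with temperature was 0.37 on the log2 scale (exact permutation p = 0.01, adjusted 0.02), made of 0.57 in WT and 0.17 in Txnip-/-. The RT and TN ranges overlapped in Txnip-/- and not in WT. By genotype the difference was 0.01 (exact permutation p = 0.935), the mean of 0.21 at RT and -0.19 at TN.

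**Figure D3:**
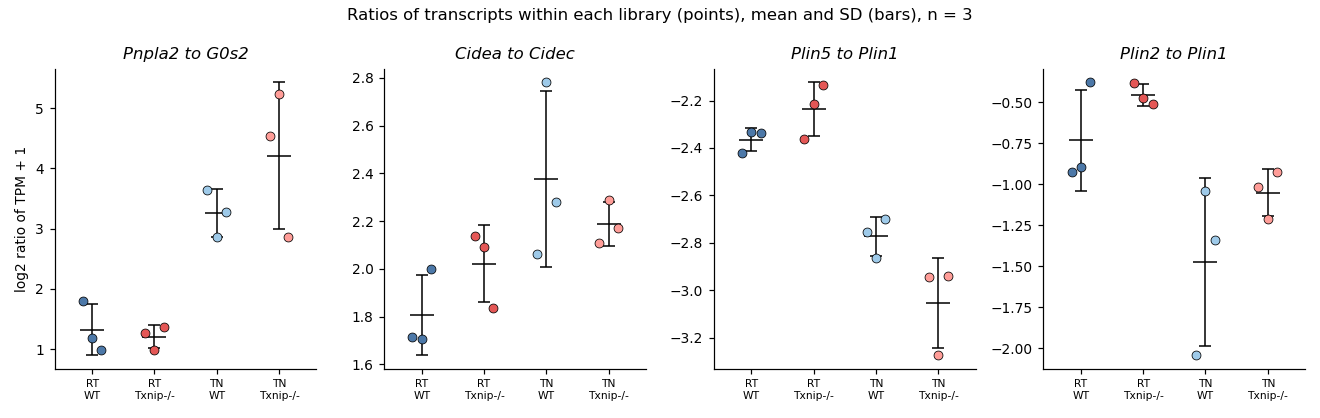
Log2 ratio of TPM + 1 of a pair of genes (vertical axes, which differ between panels and do not start at 0) in the 12 libraries. Points are libraries, and bars give the mean and SD of 3 libraries. The Pnpla2 to G0s2 ratio was higher in every TN library than in every RT library, and the TN Txnip-/- libraries of this pair spread over more than any other group.

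Summed over the 6 coat genes, the level at RT was 5002 ± 135 TPM in WT and 4435 ± 226 in Txnip-/-, and at TN 4257 ± 197 in WT and 3216 ± 280 in Txnip-/- (SD, n = 3). The TN Txnip-/- libraries, from 3023 to 3536 TPM, were below all others, the lowest of which was 4043 TPM. Cidea made up 51.5% ± 1.18 of the sum in WT and 51.7% ± 1.63 in Txnip-/- at RT, and 58.3% ± 2.78 in WT and 53.7% ± 1.76 in Txnip-/- at TN (SD, n = 3). Among the 4 perilipins, Plin2 made up 30.9% ± 4.74 in RT WT and 20.2% ± 5.07 in TN WT, and Plin4 made up 8.18% ± 0.974 and 16.4% ± 1.69. In Txnip-/- the Plin2 share went from 34.3% ± 0.691 to 25.5% ± 0.545, and the Plin4 share from 8.60% ± 1.64 to 15.3% ± 3.52. The Plin2 share was thus lower at TN in both genotypes with no overlap of the libraries, and the Plin4 share was higher. A share also rises when the other perilipins fall. In Txnip-/- the mean perilipin sum was 1573 TPM at RT and 1112 TPM at TN, and the TPM of Plin4 itself overlapped between temperatures.

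**Figure D4:**
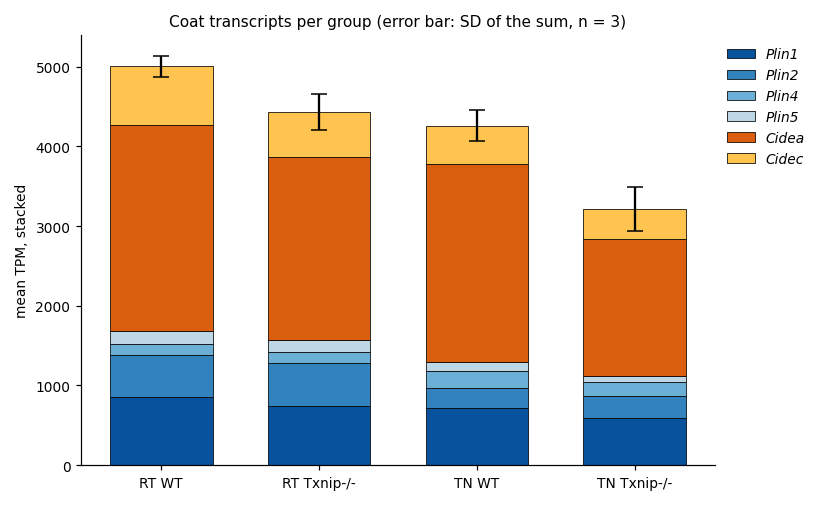
Mean TPM of the 6 coat genes stacked by group (vertical axis, from 0, n = 3 libraries). The error bar is the SD of the sum. The sum was lowest in TN Txnip-/- at 3216 TPM and highest in RT WT at 5002 TPM, and Cidea was the largest part in every group.

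Other genes of the pathway were read from 3 lists. Of 20 other droplet proteins, 17 were tested. By limma, none was called higher and 1 lower in Txnip-/- at RT, 1 was called higher and 1 lower at TN, 3 higher and 3 lower from RT to TN in WT, and 4 higher and 3 lower in Txnip-/-. Of 11 other lipases and cofactors, 10 were tested, and 0 were called by genotype at either temperature, whereas 1 was called higher and 4 lower with temperature in WT and 1 higher and 5 lower in Txnip-/-. The third list held 22 genes of the control of lipolysis (receptors, cAMP signalling, the glycerol channel Aqp7 and the fatty acid binding protein Fabp4, which is also among the adipocyte markers). All 22 were tested, with 0 called by genotype at RT, 2 called higher at TN, 4 called higher and 5 lower with temperature in WT and 3 higher and 6 lower in Txnip-/-. Fabp4 was 1 of the 5 called lower in WT. Over all genes the called share was 1.49% and 8.66% by genotype at RT and TN, and 37.8% and 39.2% with temperature in WT and Txnip-/-, so more calls with temperature than with genotype were found over all genes as well. The medians of the log2 fold change with temperature in WT were 0.00 for the droplet proteins, -0.29 for the lipases and -0.21 for the genes of lipolysis control, against 0.18 for all genes. In Txnip-/- they were 0.02, -0.32 and -0.05 against 0.15. With median centring the lower calls in WT became 4, 7 and 10, and in Txnip-/- 6, 7 and 9. The higher call among the lipases, Pnpla3, was lost in both genotypes, and the higher calls among the genes of lipolysis control in WT went from 4 to 2. By genotype at TN, median centring called 2 lipases lower (Ces1f and Pnpla8) and upper-quartile scaling 1 (Ces1f), and median centring added Plin3 to the droplet proteins called lower. Pnpla3, Ces1f, Pnpla8 and Plin3 are named after their values were seen.

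The droplet proteins called by genotype were few. Cideb, a CIDE protein best known from liver, was at 12.9, 11.4 and 12.1 TPM in RT WT and at 6.97, 7.78 and 7.5 TPM in RT Txnip-/-, a log2 fold change of -0.64 ± 0.08 (SE) with a limma adjusted p of 0.0209. Its exons share 1136 bases with the opposite-strand gene Nop9. Clstn3, whose locus also makes a droplet protein of adipocytes that the table does not separate, was at 66.7, 46.4 and 49.0 TPM in TN WT and at 17.4, 13.7 and 25.1 TPM in TN Txnip-/-. Every Txnip-/- library was below the WT range, and the log2 fold change was -1.50 ± 0.21 (SE) with a limma adjusted p of 0.0081. Tmem159, which acts with seipin where droplets form, was higher in TN Txnip-/- by 0.40 ± 0.08 (SE) on the log2 scale, with an adjusted p of 0.0262 in limma, and its exons share 225 bases with the opposite-strand gene 4930560O18Rik.

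Hcar1 and Hcar2, receptors that restrain lipolysis, were called higher in TN Txnip-/-. Hcar1, the lactate receptor, was at 13.3, 13.1 and 10.4 TPM in TN WT and at 28.1, 45.5 and 28.8 TPM in TN Txnip-/-, a log2 fold change of 1.38 ± 0.18 (SE) with a limma adjusted p of 0.0067. Hcar2, the receptor for hydroxybutyrate and niacin, rose by 0.90 ± 0.11 (SE) on the log2 scale with a limma adjusted p of 0.0054, from 3.14 to 4.35 TPM in WT up to 7.54 to 8.23 TPM in Txnip-/-. Both are coupled to a lowering of cAMP. At RT Hcar1 was at 35.1, 32.8 and 15.1 TPM in WT and at 44.6, 32.7 and 28.0 TPM in Txnip-/-. With temperature Hcar1 was called lower in WT (log2 fold change -1.03 ± 0.29 SE, limma adjusted p 0.0117). In Txnip-/- its change was -0.05 ± 0.29 (SE) and was not called. Hcar2 was not called with temperature in either genotype.

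Of the 3 lists, the lower calls of largest size with temperature in WT were Pde4d, a phosphodiesterase that degrades cAMP (-1.46 on the log2 scale), Abhd5 (-1.33), Clstn3 (-1.22) and the lipase Ddhd2 (-1.10), and in Txnip-/- Clstn3 (-2.18), Pde4d (-1.52), Abhd5 (-1.05) and Ddhd2 (-0.86). The higher calls in WT included Npr3, which clears natriuretic peptides (1.67), Hilpda, an inhibitor of Pnpla2 in many cell types (1.26), and Spg20, a droplet-associated protein (0.85). In Txnip-/- they included Npr3 (1.48), Spg20 (0.95) and the natriuretic peptide receptor Npr1 (0.68). Hilpda was at 5.28, 7.70 and 6.16 TPM in RT WT and at 16.8, 12.7 and 20.9 TPM in TN WT, the opposite direction to the other Pnpla2 inhibitor, G0s2, at a far lower level in TPM. In Txnip-/- Hilpda was at 9.42, 7.90 and 8.11 TPM at RT and at 20.9, 9.89 and 13.5 TPM at TN. It was called higher there too (log2 fold change 0.68, limma adjusted p = 0.0289), but not under upper-quartile scaling or median centring. None of the 49 genes tested was called for a different response between the genotypes, against 0.00801% of all genes.

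**Figure D5:**
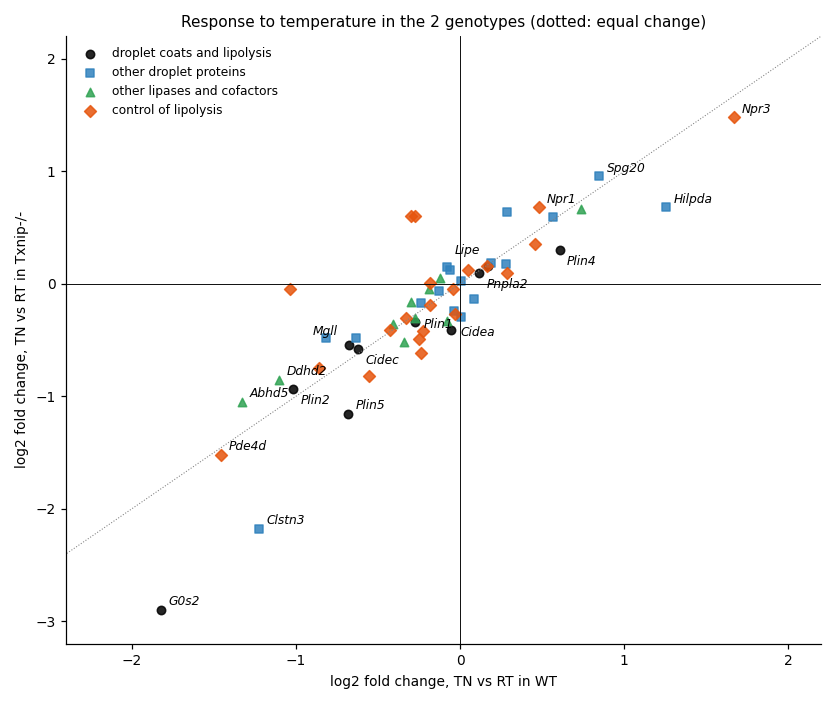
Log2 fold change from RT to TN in WT (horizontal axis) and in Txnip-/- (vertical axis) for the 10 genes and tested genes of 3 other lists, each point 1 gene, with 1 gene of the list on lipolysis control not shown. The dotted line is equal change. G0s2 is lowest in both genotypes at -1.82 and -2.90, and Plin5 and Clstn3 lie below the line, though no gene shown was called for a difference between the genotypes.

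As a description, each gene other than Lipe was matched to the gene with the most similar pattern of log2(TPM + 1) across the 12 libraries, among 6589 genes. The points share the 4 groups, so the correlation mostly follows group means. The closest were Slc25a42 for Plin5 (r = 0.990), Pex16 for Mgll (0.975), Opa3 for G0s2 (0.971), Cox7a1 for Plin1 (0.969), Cib2 for Cidec (0.962), Trp53inp2 for Plin2 (0.960), Pyurf for Cidea (0.955), Msmo1 for Plin4 (0.927) and Pacs2 for Pnpla2 (0.919). Among the 10 genes themselves, the highest r were 0.933 between Plin1 and Cidec, 0.928 between Plin5 and Cidec and 0.919 between Plin5 and G0s2, and the lowest was -0.86 between Lipe and Mgll.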

How the data were processed

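Poly(A) RNA of BAT was sequenced in 12 libraries, 3 per group. Per the study's methods and the submitters' processing notes, the authors mapped their single-end reads with STAR 2.7.5a on mm10, and exon reads were counted per gene in HOMER 4.11.1. The deposited values used are TPM computed by the authors. Listed genes account for 55.4 to 57.6% of the TPM total of a library, so TPM here is relative to more than the genes listed. The deposited log2 values, made by the authors for each temperature apart, served as an alternative only. Columns with the authors' own fold changes and p-values were not used. Depth was 29.9 M to 47.4 M reads per library. No counts were used, so no count model was fitted, and intervals reflect the spread between libraries.

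Genes whose mean reached 1 TPM over the fitted libraries were tested with limma 3.58.1 (R 4.3.3, trended variance) on log2(TPM + 1), so that a fold change understates that of low genes. Genotype comparisons used the 6 libraries of a temperature, and temperature comparisons and the interaction used all 12. Each fit took 1 spread per gene, shared by its groups. Ratios were tested by exact, two-sided permutation within the other factor. The script was tested on simulated data with known changes. All 10 genes, Txnip, at most 4 called genes per direction of 3 lists in each comparison and the closest gene by Pearson r (mean TPM of at least 10) were named, apart from a gene of the list on lipolysis control and the match of Lipe, which are not reported here. The genes and lists were chosen with earlier results of these data known. Alternatives were a pseudocount of 0.1, every gene above 0, upper-quartile scaling, median centring, an adjusted p under 0.1, a replicate block, all 12 libraries in 1 fit, the authors' log2 values and leaving out each library. For Plin5, Cidec and Pnpla2 the TPM and log2 tables name different transcripts.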

Additional observations from a re-analysis of the deposited data

How the results depend on the processing

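The results rest on 3 libraries per group and on relative abundances, so a gene at a low level or with scattered libraries, such as G0s2 at TN, could hide a change. The number of the 10 genes called was 0 at RT and became 1 (Cidec, lower) at an adjusted p under 0.1. At TN it was 2 and became 0 when every gene above 0 was fitted, and 0 to 3 when each library was left out. From RT to TN it stayed at 5 to 6 in WT and 6 to 8 in Txnip-/- on leaving out a library. With median centring the temperature change was -0.069 for Pnpla2 and -0.013 for Lipe in WT, and -0.091 and -0.036 in Txnip-/-, against positive values as deposited. Upper-quartile scaling turned the genotype difference in response to 0.0052 for Pnpla2 and 0.0053 for Lipe. None of these 6 values was called under either setting. Centring takes the median of a library off each of its genes. The median change of all genes with temperature, as deposited, was 0.18 in WT and 0.15 in Txnip-/-.

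Leaving out a library turned the sign of uncalled values only. Log2 fold changes at RT ranged from -0.015 to 0.21 for Plin2, -0.18 to 0.069 for Plin4, -0.15 to 0.0076 for Plin5, -0.036 to 0.051 for Lipe, -0.12 to 0.040 for Mgll and -0.037 to 0.37 for G0s2. At TN they ranged from -0.10 to 0.30 for Plin2, -0.058 to 0.0061 for Lipe and -0.031 to 0.16 for Mgll. The change of Cidea with temperature in WT ranged from -0.10 to 0.0079. The difference in response ranged from -0.14 to 0.0096 for Plin1, -0.16 to 0.24 for Plin2, -0.11 to 0.14 for Cidec, -0.062 to 0.021 for Pnpla2 and -0.071 to 0.016 for Lipe. The genotype difference of the log2 ratio ranged from -0.064 to 0.12 for Cidea to Cidec. For Plin2 to Plin1 this difference kept its sign, ranging from 0.21 to 0.46.

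Whether replicate numbers pair the libraries is not settled by the values. The correlation of deviations ran from -0.132 to 0.297 for same-numbered libraries and from -0.301 to 0.184 for different numbers. Between the genotypes at RT it was 0.297, -0.022 and 0.21 for same numbers, and -0.301 to 0.159 for different numbers. With the replicate block, 0, 2, 6, 7 and 0 of the 10 genes were called in the comparisons at RT, at TN, with temperature in WT and in Txnip-/- and for the interaction, as without it. Calls over all genes were 100 at RT and 977 at TN with the block, against 178 and 1116. With the block, the change of the Cidea to Cidec ratio with temperature was 0.37 with an exact permutation p of 0.0625 (adjusted over the 8 tests 0.125). For the other 3 ratios it was 0.03125, the smallest that flipping 6 pairs allows (adjusted 0.0833), so none of the 4 changes with temperature passed after adjustment with the block. With the authors' log2 values or all 12 libraries in 1 fit, 0 genes at RT and 2 at TN were called, as by the TPM of each temperature.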
